A study of Mus musculus with 15 samples.

Results

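The 54 genes described here encode the machinery of mitosis: the kinases and cyclins of mitotic entry, the spindle checkpoint, the centromere and kinetochore, the chromosomal passenger complex, spindle motors, condensin and the proteins of cytokinesis. They were taken by gene symbol from a list of mitosis genes, with Cdk1 also accepted under its older name Cdc2a, and all 54 were among the 19214 genes tested. Their RNA was measured on Agilent one-colour mouse arrays, 1 sample per array, in liver and liver tumors of FVB/N mice. All mice carried LAP-tTA, a transgene that makes a doxycycline-repressed transcriptional activator in liver cells, and all but the controls also carried TRE-MYC, a MYC transgene that this activator drives. Doxycycline chow at 200 mg/kg was fed until the mice were over 8 weeks old and then withdrawn. The 3 control arrays held livers of mice with LAP-tTA alone, for which the labels give no time off doxycycline. The 4 pre-tumor arrays held livers without tumors, 4 to 5 weeks after withdrawal. The 4 tumor arrays held tumor nodules, 8 to 9 weeks after withdrawal. The 4 regression arrays held liver tumor tissue after 8 to 9 weeks without doxycycline followed by 72 hours of renewed doxycycline chow, which switches the transgene off.

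Dividing cells make most of these RNAs in a wave that peaks in G2 and mitosis, and resting hepatocytes make little of them. Cyclin-dependent kinase 1 with cyclins A and B drives entry into mitosis. Kinetochores then join chromosomes to the spindle while the checkpoint holds back the anaphase-promoting complex until all are attached, after which separase cuts cohesin, the chromosomes part and the cell divides. In quiescent cells the DREAM complex represses these genes through CHR elements in their promoters, and in dividing cells the MuvB core with B-Myb and FoxM1 activates them there, together with the CCAAT-binding factor NF-Y.

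Promoters are shown for 4 members because they carry both elements and their genes had small adjusted p values in tumor against control. The windows are those of RefSeq on build GRCm38.p6, from 250 bases before to 50 after the start, printed 5′ to 3′ on the gene's strand. Capitals mark 3 forms of the CHR core, which are the common form TTTGAA, then TTCGAA as a variant and the weaker TTTAAA as another, and the CCAAT box, each on either strand, so that ATTGG is a CCAAT box read from the other strand. They are, in order, Cenpa at chr5:30666636-30666935 on the plus strand, Cdk1 at chr10:69352863-69353162 on the minus strand, Ect2 at chr3:27153805-27154104 on the minus strand and Top2a at chr11:99024140-99024439 on the minus strand.
Cenpa: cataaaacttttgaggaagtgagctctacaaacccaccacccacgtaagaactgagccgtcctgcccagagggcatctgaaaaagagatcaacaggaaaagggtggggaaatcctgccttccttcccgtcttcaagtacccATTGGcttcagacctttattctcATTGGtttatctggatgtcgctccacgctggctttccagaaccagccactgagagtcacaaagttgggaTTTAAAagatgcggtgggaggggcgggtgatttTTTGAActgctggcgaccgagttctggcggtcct
Cdk1: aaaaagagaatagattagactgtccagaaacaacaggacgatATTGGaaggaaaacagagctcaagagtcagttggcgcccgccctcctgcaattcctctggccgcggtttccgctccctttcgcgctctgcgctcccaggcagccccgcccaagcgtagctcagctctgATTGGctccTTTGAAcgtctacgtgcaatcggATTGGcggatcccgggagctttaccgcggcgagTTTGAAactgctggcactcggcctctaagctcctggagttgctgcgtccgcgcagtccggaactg
Ect2: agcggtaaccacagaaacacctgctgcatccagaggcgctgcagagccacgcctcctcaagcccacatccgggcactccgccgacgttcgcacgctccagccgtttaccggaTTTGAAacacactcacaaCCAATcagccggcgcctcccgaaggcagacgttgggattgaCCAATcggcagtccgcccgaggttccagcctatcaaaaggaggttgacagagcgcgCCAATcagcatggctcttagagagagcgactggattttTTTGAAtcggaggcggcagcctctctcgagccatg
Top2a: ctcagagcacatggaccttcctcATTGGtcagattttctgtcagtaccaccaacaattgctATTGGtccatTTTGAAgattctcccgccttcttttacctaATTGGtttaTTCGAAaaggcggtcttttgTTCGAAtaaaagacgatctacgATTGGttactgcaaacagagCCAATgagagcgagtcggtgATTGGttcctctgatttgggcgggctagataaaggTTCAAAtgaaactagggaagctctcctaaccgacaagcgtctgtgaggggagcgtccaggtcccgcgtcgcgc
RefSeq windows were matched for 44 of the 54 members, which have 49 windows between them. A CHR core lay in 39 of these windows (79.6%), against 28.8% of all 32851 windows of the same length. TTTGAA made up most of this, in 69.4% of member windows against 17.9% of all. A CCAAT box lay in 38 (77.6%) against 37.4% of all, and both elements lay in 34 (69.4%) against 11.3% of all. The E-box CACGTG, the sequence that MYC with MAX prefers, lay in 3 (6.12%) against 7.15% of all. All were searched on both strands, and a CHR core and a CCAAT box can share a letter at their ends. Both CHR and CCAAT lay in 22 of 30 windows (73.3%) of members that rose in tumor and in 12 of 19 windows (63.2%) of the other members. A match is a stretch of letters and not a measured binding site.

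Levels are log2 processed Cy3 signal minus the 75th percentile of the same array, so that 0 is the signal of that percentile, and they can be set against each other within a gene but not between genes. The share of the 43379 spots that was well above background ran from 46.4% on tumor 3 to 90.8% on pre-tumor 4. The median log2 signal of the E1A control probes was 6.25 on pre-tumor 4, 5.12 on control 1, 5.08 on tumor 4 and 4.68 on pre-tumor 1. On the other arrays it ran from 1.37 to 3.38. The arrays lay on 4 slides with at most 1 array of a group on each. Whether each array stands for its own mouse is not given in the labels, so p values measure only the spread between these arrays, whose number limits the precision. The targeted gene was checked first. Of 3 Myc probes, 1 read 4.08, 3.66, 4.81 and 4.35 on the tumor arrays, against −0.23, −0.94 and −1.63 on the control arrays (difference 5.16 ± 0.54, limma adjusted p = 7.74e-06). On the regression arrays it read −0.56, −0.24, −0.10 and −0.82, and on the pre-tumor arrays 2.49, 0.09, 1.72 and 0.20. The tumor arrays lay above all others, and the pre-tumor arrays spread widely above control (difference 2.06, adjusted p = 0.869). The other 2 probes did not pass in tumor against control (−1.18, adjusted p = 0.089, and −1.10, adjusted p = 0.132). Of these, 1 was called in the direction opposite to the high probe in tumor against pre-tumor (−1.26, adjusted p = 0.0435) and in regression against tumor (1.64, adjusted p = 0.0126), and the other in neither (−0.67 and 0.67). The probes therefore do not give 1 direction for Myc, and the files do not say which probes read the transgene.

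Across the 54 genes the tumor arrays stood apart from the other 11. Relative to each gene's control mean, the median member stood at 3.32, 3.32, 2.64 and 3.24 (log2) on the tumor arrays and at −0.14, −0.18, 0.24 and 0.16 on the regression arrays. On the pre-tumor arrays it stood at 0.39, −0.15, −0.17 and 0.48, and on the control arrays at 0.03, 0.11 and −0.10. The group mean was highest in tumor for 53 members, and in pre-tumor for Espl1. Well above background were 52 to 54 members on each tumor array, 40 to 46 on each regression array, 31 to 49 on each pre-tumor array and 29 to 43 on each control array, so for many members the low side of a difference lies near background. The median SD of the members was 0.36 (log2) in tumor, 0.49 in regression, 0.61 in pre-tumor and 0.75 in control, beside 0.53, 0.51, 0.63 and 0.60 for all genes in the same order.

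**Figure D1:**
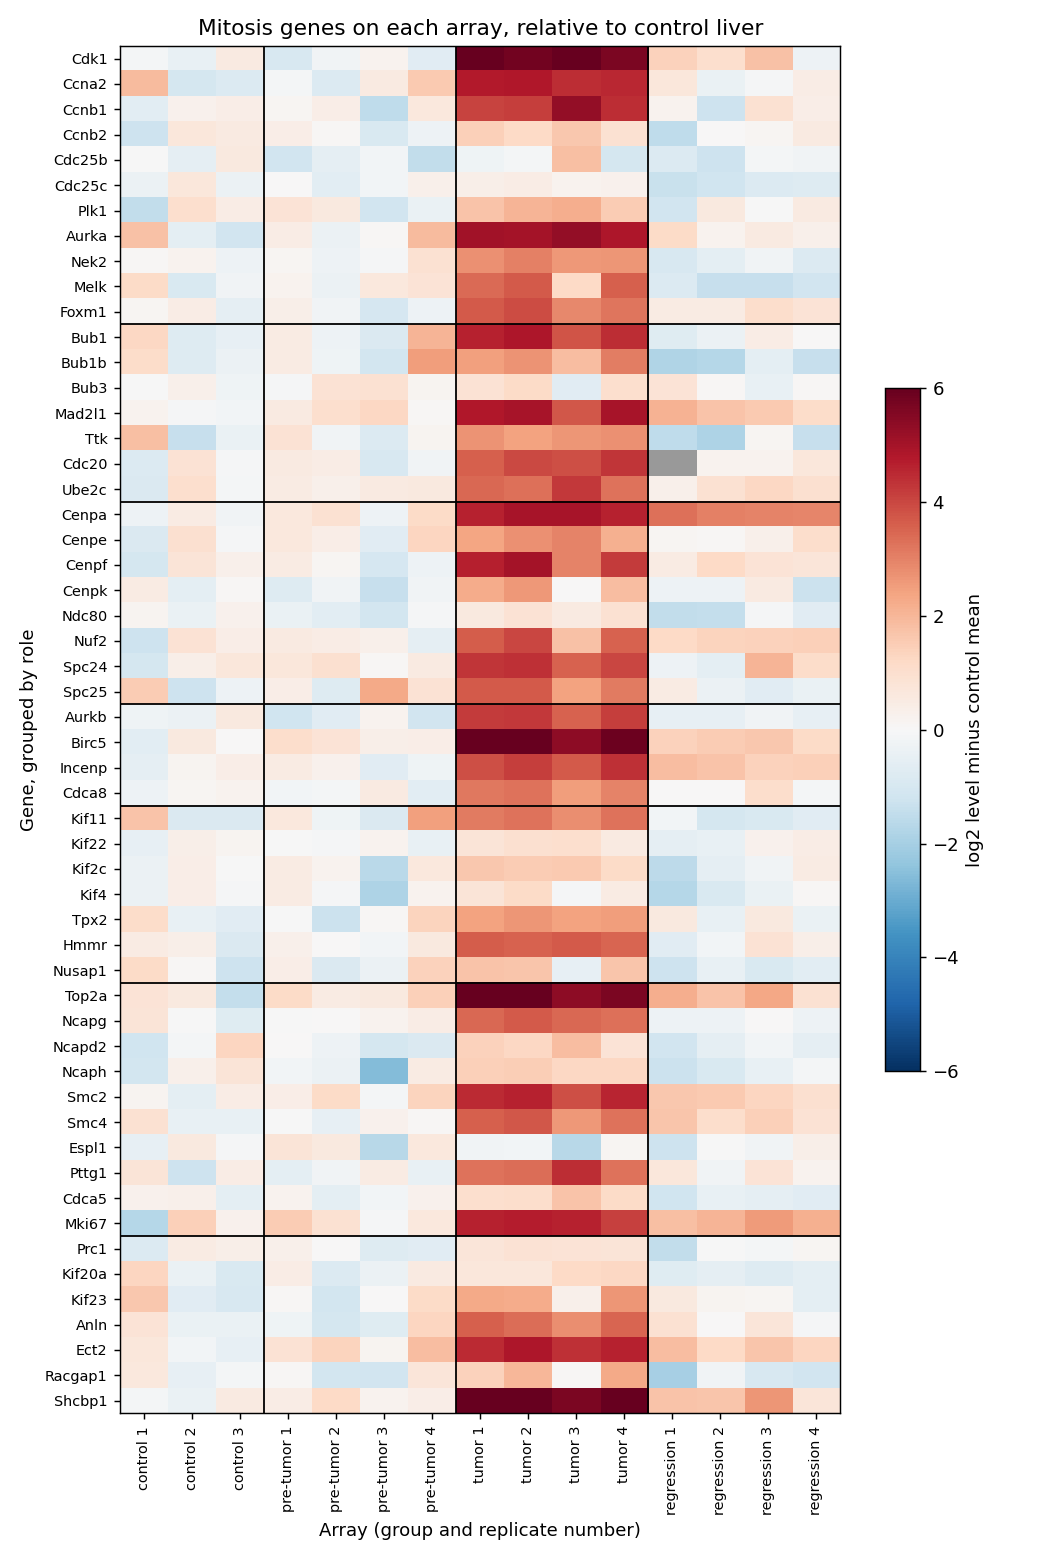
Log2 level of each of the 54 mitosis genes (down the page, by role) on each of the 15 arrays (across, by group), minus that gene's control mean, on a color scale capped at 6 either way; gray marks Cdc20 on regression 1, where the spot was left out. The 4 tumor arrays are high for nearly all genes, while the regression arrays lie near the control arrays for most.

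The comparison of tumor with control asks what differs between MYC tumor nodules and livers without the MYC transgene. Of the 54 members, 37 rose in tumor (68.5%), none fell and 17 did not pass, where 9.43% of all genes tested were called higher and 7.01% lower at a limma adjusted p under 0.05. The median difference of the members was 3.17 (log2), against −0.18 for all genes, with a range of −0.47 to 6.16. In 43 members every tumor array lay above every control array, as in 13.7% of all genes. Without adjustment, 45 members had a p under 0.05 on the higher side and 0 on the lower side. The share of all genes at this looser cut is not given here, so the count has no background to be read against. Of the 37, 5 were well above background on 0 control arrays and 11 on 1. Where the dimmer group had no such array, the difference is given as a lower bound, written "at least", the bright group being set, array by array, against the weakest signal that still cleared background there, or the gene's own signal where that was higher. The size of the differences depends on how background is treated: the median was 1.86 in the authors' table and 0.71 after normexp correction with an offset of 50, while the count of members called ran from 34 to 42 over all alternatives tried.

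Mitotic entry kinases and their partners rose in 8 of 11 members. Cdk1, the kinase that drives entry into mitosis, read 0.98, 0.78, 1.49 and 0.66 on the tumor arrays, against −5.10, −5.46 and −4.46 on the control arrays. It was well above background on the 4 tumor arrays and on none of the other 11, so the probe used was kept for testing only through the tumor arrays. Cdk1 was at least 27.5-fold higher in tumor (adjusted p = 4.2e-07). Its other passing probe gave a difference of 1.19 that did not pass (adjusted p = 0.205). Foxm1, the transcription factor that activates late cell cycle genes, read 2.40, 2.65, 1.63 and 1.96 on the tumor arrays, against −1.16, −0.83 and −1.83 on the control arrays. The lowest tumor array lay above the highest control array, and the difference was 3.43 ± 0.38 (10.8-fold, adjusted p = 1.21e-05). Aurka, a kinase of the spindle poles, read 2.68, 2.64, 2.89 and 2.48 on the tumor arrays, against −0.64, −2.95 and −3.54 on the control arrays. The tumor arrays were close together while control 1 lay well above the other control arrays, and the difference was 5.05 ± 0.61 (33.0-fold, adjusted p = 2.42e-05). Ccnb1, cyclin B1, read 0.70, 0.82, 1.92 and 1.08 on the tumor arrays, against −4.0, −3.11 and −2.94 on the control arrays, and Nek2, a centrosomal kinase, read 1.38, 1.64, 1.24 and 1.27 on the tumor arrays, against −1.28, −1.13 and −1.68 on the control arrays. Neither overlapped between the groups (differences 4.48 ± 0.57 and 2.75 ± 0.34). Plk1, which acts at centrosomes and kinetochores, read 2.31, 2.63, 2.78 and 2.15 on the tumor arrays, against −0.87, 1.63 and 1.08 on the control arrays. Its groups did not overlap but its difference of 1.86 ± 0.61 passed narrowly (adjusted p = 0.0477). Ccna2, cyclin A2, and Melk, a kinase of dividing cells, completed the 8, with differences of 4.63 and 2.96.

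Of the checkpoint and anaphase-promoting group, 6 of 7 members rose. Mad2l1, the checkpoint protein that holds back Cdc20, read 4.02, 4.16, 2.93 and 4.15 on the tumor arrays, against −0.56, −0.84 and −0.96 on the control arrays. All tumor arrays were far above all control arrays, with a difference of 4.60 ± 0.39 (24.3-fold, adjusted p = 9.69e-07). Cdc20, the activator of the anaphase-promoting complex, read 2.99, 3.37, 3.25 and 3.70 on the tumor arrays, against −1.41, 0.28 and −0.69 on the control arrays (difference 3.94 ± 0.45, adjusted p = 2.02e-05). Ube2c, the ubiquitin-conjugating enzyme of that complex, read 1.14, 1.02, 1.98 and 0.98 on the tumor arrays, against −3.15, −1.30 and −2.41 on the control arrays (difference 3.56 ± 0.41, adjusted p = 1.79e-05). Neither gene's groups overlapped. The checkpoint kinases Bub1 and Ttk and the Bub1-related Bub1b rose by 4.42, 2.63 and 2.52. Bub3, which brings Bub1 and Bub1b to kinetochores, read 2.67, 2.98, 1.13 and 2.83 on the tumor arrays, against 1.78, 2.10 and 1.54 on the control arrays. Its groups overlapped and it did not pass (0.59, adjusted p = 0.432).

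In the centromere and kinetochore group 6 of 8 members rose. Cenpa, the histone H3 variant that marks centromeres, read 1.28, 1.65, 1.64 and 1.30 on the tumor arrays, against −3.61, −2.81 and −3.52 on the control arrays. The tumor arrays lay within a narrow band above all controls, of which 1 was well above background, and the difference was 4.78 ± 0.36 (27.6-fold, adjusted p = 2.86e-07). Cenpf, a large protein of the outer kinetochore, read 3.35, 3.70, 1.70 and 2.89 on the tumor arrays, against −2.37, −0.52 and −1.0 on the control arrays (difference 4.21 ± 0.53, adjusted p = 3.61e-05). Spc24, a subunit of the microtubule-binding NDC80 complex, read 0.16, 0.25, −0.59 and −0.14 on the tumor arrays, against −5.20, −3.78 and −3.47 on the control arrays (at least 11.7-fold higher, adjusted p = 0.000112). Tumor 3 was the lowest tumor array for both, and the groups did not overlap. Spc25 and Nuf2, of the same complex, rose by 3.23 each and Cenpe, a kinetochore motor, by 2.57. Ndc80 itself did not pass (0.71, adjusted p = 0.242), nor did Cenpk (1.67, adjusted p = 0.0601).

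All 4 members of the chromosomal passenger complex rose. Birc5, or survivin, the subunit that reads a histone mark at centromeres, read 6.72, 6.99, 5.96 and 6.47 on the tumor arrays, against −0.05, 1.19 and 0.64 on the control arrays. The gap between the groups was several log2 units, and the difference was 5.94 ± 0.36 (61.4-fold, adjusted p = 6.39e-08). Incenp, the scaffold of the complex, read 2.74, 3.01, 2.57 and 3.24 on the tumor arrays, against −1.65, −0.97 and −0.74 on the control arrays (difference 4.01 ± 0.36, adjusted p = 1.41e-06). Aurkb, its kinase, read −0.63, −0.56, −1.26 and −0.65 on the tumor arrays, against −5.09, −5.15 and −4.21 on the control arrays. Aurkb was well above background on the tumor arrays and on no other array, so it was kept for testing only through the group where it is high. It was at least 8.16-fold higher in tumor (adjusted p = 2.21e-06). Cdca8, or borealin, rose by 2.97.

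Among the spindle motors and microtubule factors 3 of 7 rose. Hmmr, which acts at spindle poles, read 0.85, 0.76, 0.93 and 0.71 on the tumor arrays, against −2.26, −2.41 and −3.61 on the control arrays (difference 3.58 ± 0.41, adjusted p = 1.47e-05). Tpx2, which activates Aurka on the spindle, read 0.15, 0.40, 0.16 and 0.23 on the tumor arrays, against −1.14, −2.71 and −2.94 on the control arrays (difference 2.50 ± 0.55, adjusted p = 0.00454). Both were nearly level across the tumor arrays. Kif11, the motor that pushes spindle poles apart, read 0.57, 0.71, 0.24 and 0.75 on the tumor arrays, against −0.81, −3.38 and −3.42 on the control arrays (difference 3.10 ± 0.70, adjusted p = 0.00574). Its control 1 array lay between the other controls and the tumors. Kif22, Kif2c, Kif4 and Nusap1 did not pass.

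Chromosome structure and separation genes rose in 7 of 10 members. Top2a, the topoisomerase that untangles sister chromatids, read 3.17, 2.94, 2.23 and 2.50 on the tumor arrays, against −2.31, −2.56 and −4.57 on the control arrays. The groups were far apart, with a difference of 5.86 ± 0.51 (57.9-fold, adjusted p = 1.23e-06). Smc2, a core ATPase of condensin, read 1.71, 1.86, 1.1 and 1.81 on the tumor arrays, against −2.61, −3.36 and −2.31 on the control arrays (difference 4.38 ± 0.40, adjusted p = 1.82e-06). Ncapg, a regulatory subunit of condensin I, read 1.38, 1.62, 1.41 and 1.26 on the tumor arrays, against −1.29, −2.08 and −2.79 on the control arrays (difference 3.47 ± 0.34, adjusted p = 3.49e-06). For both, every tumor array lay above every control array. Mki67, the proliferation marker that coats mitotic chromosomes, read 1.78, 1.86, 1.78 and 1.27 on the tumor arrays, against −4.53, −1.40 and −2.57 on the control arrays. The control arrays spread widely, below all tumor arrays, and the difference was 4.50 ± 0.56 (adjusted p = 3.73e-05). Pttg1, or securin, the inhibitor of separase, rose by 3.57, Smc4, the partner of Smc2, by 3.29 and Cdca5, or sororin, which guards cohesin, by 1.22. Espl1, separase itself, read −1.58, −1.53, −3.05 and −1.26 on the tumor arrays, against −1.89, −0.82 and −1.45 on the control arrays, and did not pass (−0.47 ± 0.60, adjusted p = 0.666).

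Of the midzone and cytokinesis genes 3 of 7 rose. Shcbp1, a midbody protein, read 1.31, 1.48, 0.59 and 1.03 on the tumor arrays, against −5.19, −5.46 and −4.52 on the control arrays, none of which was well above background. It was at least 30.0-fold higher in tumor (adjusted p = 1.89e-07). Ect2, the exchange factor that activates RhoA at the division plane, read 0.48, 0.84, 0.39 and 0.62 on the tumor arrays, against −3.33, −4.17 and −4.51 on the control arrays (at least 16.2-fold higher, adjusted p = 1.23e-06). Anln, or anillin, a scaffold of the contractile ring, read 1.41, 1.18, 0.63 and 1.31 on the tumor arrays, against −1.36, −2.54 and −2.57 on the control arrays (difference 3.29 ± 0.51, adjusted p = 0.000269). For all 3 the groups were separate. Prc1 (0.79), Kif20a, Kif23 (1.85) and Racgap1 (1.43), which build the central spindle, did not pass with the probe used.

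**Figure D2:**
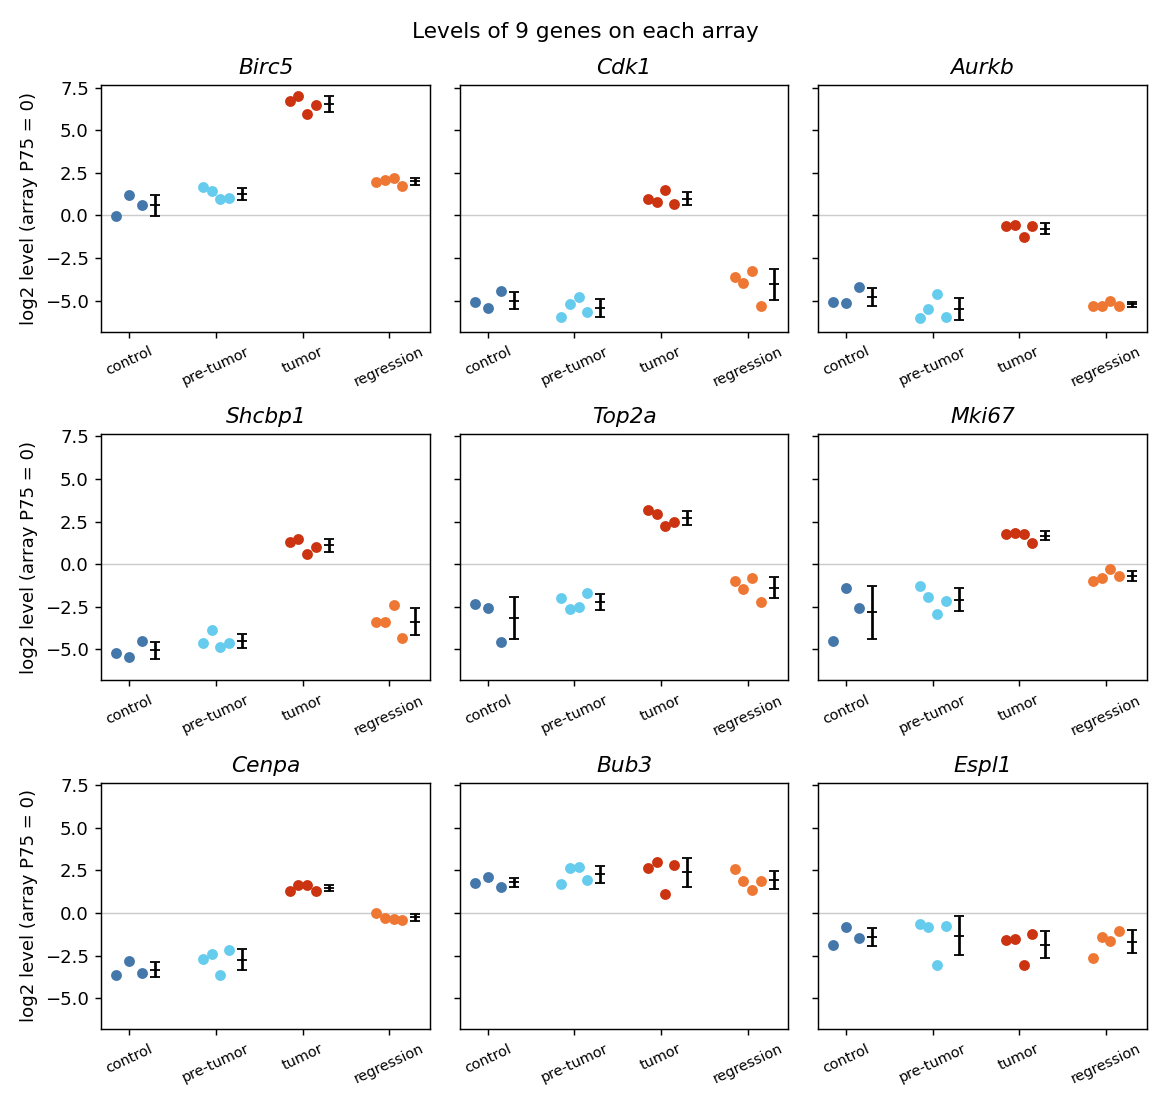
Log2 level (0 is the array's 75th percentile) of 9 mitosis genes on each array, by group, with the group mean ± SD as a black mark. Birc5, Cdk1, Aurkb, Shcbp1, Top2a, Mki67 and Cenpa are high on all 4 tumor arrays, and Bub3 and Espl1 overlap between the groups. Birc5, Shcbp1, Top2a, Mki67 and Cenpa lie higher on every regression array than on any control array, with the widest gap for Cenpa.

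Hepatocyte markers moved the other way. The summed level of 10 tested hepatocyte markers ran from 408 to 1304 on the tumor arrays, against 3039 to 3409 on the control arrays (linear scale, 1 being the 75th percentile), and 9 of the 10 fell in tumor. Macrophage markers summed to 53.2 to 93.2 on the tumor arrays, against 28.9 to 59.5 on the control arrays, with 4 of 12 higher and 2 lower. Stellate and fibroblast markers summed to 96.9 to 206 on the tumor arrays, against 39.6 to 96.0 on the control arrays (4 of 12 higher and 2 lower). Endothelial markers summed to 7.15 to 8.82 on the tumor arrays, against 9.66 to 16.5 on the control arrays (1 of 12 higher and 2 lower), and neutrophil markers to 1.41 to 4.26 on the tumor arrays, against 5.40 to 14.6 on the control arrays (none of 9 called). Of these cell types, the macrophage sums overlapped between the groups and the others did not. In whole tissue, fewer cells of a type and less RNA per cell cannot be told apart, and the part of cell makeup in the rise of the mitosis genes was not tested. Within slides, which hold 1 array of each group at most, members were higher in tumor than in control in 51 of 54 on slide 1, 47 on slide 2 and 51 on slide 4.

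Against pre-tumor livers, which carry the same transgenes, the tumors were higher in 44 of the 54 members (81.5%) and lower in none, with 10.1% of all genes called higher and 9.09% lower. The median difference was 2.84, against −0.12 for all genes. In 45 members all tumor arrays lay above all pre-tumor arrays, as in 11.6% of all genes, and in none were all below, as in 9.46%. This comparison uses the same tumor arrays as the one with control. Pre-tumor levels were −5.98, −5.20, −4.81 and −5.70 for Cdk1, 1.65, 1.41, 0.95 and 0.99 for Birc5 and −2.70, −2.41, −3.62 and −2.18 for Cenpa, all below the tumor arrays given above. Cdk1 was at least 54.2-fold higher in tumor (adjusted p = 5.69e-08), and Birc5 was higher by 5.28 (adjusted p = 3.57e-08). Called here but not against control were 7 members: cyclin B2 (Ccnb2, 1.48, adjusted p = 0.046), the kinetochore genes Ndc80 (1.26, adjusted p = 0.0197) and Cenpk, the microtubule-depolymerising motor Kif2c, the condensin subunits Ncapd2 and Ncaph, and Racgap1, which partners Kif23 at the midzone. The difference between these calls was not tested. Plk1 was higher by 1.89 (adjusted p = 0.0258). In the same comparison 9 of 10 hepatocyte markers were lower in tumor, 5 of 12 endothelial and 3 of 9 neutrophil markers were lower, macrophage markers were higher in 5 of 12 and lower in 2, and stellate and fibroblast markers higher in 3 of 12 and lower in 4. Their part in the result was not tested.

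No member was called between pre-tumor and control livers, which does not show that their levels were the same. The median difference was 0.02, against −0.04 for all genes, and it ran from −0.84 to 1.06. The pre-tumor mean was above the control mean in 28 members and below it in 26, and no gene at all was called (0% each way). With limma the smallest adjusted p among the members was 1, and 1 member, Ect2, had an unadjusted p under 0.05. Ect2 read −3.15, −2.66, −3.83 and −2.15 on the pre-tumor arrays, against −3.33, −4.17 and −4.51 on the control arrays, with overlap. Mki67 read −1.30, −1.92, −2.92 and −2.19 on the pre-tumor arrays, overlapping the control arrays (difference 0.75 ± 0.56). No member was called under any of the alternatives, the authors' table and normexp included.

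The comparison of regression with tumor asks what 72 hours of doxycycline change in tumors. Of the 54 members, 47 fell in regression (87%), none rose and 7 did not pass, where 8.5% of all genes were called lower and 8.37% higher. The median difference was −2.71, against −0.13 for all genes. Without adjustment 51 members had a p under 0.05 on the lower side and 0 on the higher side, again with no share of all genes at that cut. In 47 members every regression array lay below every tumor array, as in 13.1% of all genes. The tumor arrays are those of the earlier comparisons, so the members that were high in tumor against control share their values with this one. The median was −1.62 in the authors' table and −0.70 after normexp correction.

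Entry kinases fell in 10 of 11 members. Cdk1 read −3.63, −3.98, −3.25 and −5.33 on the regression arrays, against 0.66 to 1.49 on the tumor arrays, and was at least 27.9-fold lower in regression (adjusted p = 5.29e-06). Nek2 read −2.34, −1.97, −1.59 and −2.20 on the regression arrays, against 1.24 to 1.64 on the tumor arrays (difference −3.41 ± 0.31, adjusted p = 7.05e-06). Ccnb1 read −3.12, −4.60, −2.45 and −2.93 on the regression arrays, against 0.70 to 1.92 on the tumor arrays (difference −4.41 ± 0.52, adjusted p = 6.04e-05). All 3 were below every tumor array by more than 2 log2 units. Aurka read −1.21, −2.17, −1.84 and −2.05 on the regression arrays (difference −4.49 ± 0.56) and Foxm1 read −0.78, −0.80, −0.21 and −0.45 (difference −2.72 ± 0.35, adjusted p = 0.000111). Both were below all tumor arrays. Plk1 read −0.53, 1.20, 0.61 and 1.16 on the regression arrays, a smaller gap to the tumor arrays (difference −1.86 ± 0.56, adjusted p = 0.0317). Melk fell by at least 17.6-fold. Cdc25c, a phosphatase that activates Cdk1, fell by 1.35 (adjusted p = 0.00713), though it had not passed in tumor against control (0.32, adjusted p = 0.596). Its relative Cdc25b read 0.93, 0.51, 1.63 and 1.55 on the regression arrays, 1.5, 1.65, 3.55 and 0.72 on the tumor arrays and 1.74, 1.20 and 2.33 on the control arrays, overlapping throughout.

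In the checkpoint group 6 of 7 fell, and Bub3 again did not pass (−0.47). Mad2l1 read 1.31, 0.93, 0.76 and 0.33 on the regression arrays, against 2.93 to 4.16 on the tumor arrays (difference −2.98 ± 0.36, adjusted p = 7.02e-05). Ube2c read −1.99, −1.37, −1.05 and −1.33 on the regression arrays, against 0.98 to 1.98 on the tumor arrays (difference −2.71 ± 0.38). Cdc20 read −0.37, −0.41 and 0.07 on the 3 regression arrays where its spot was kept, against 2.99 to 3.70 on the tumor arrays (difference −3.57 ± 0.45, adjusted p = 0.000107, n = 3 and 4, limma). The groups of these 3 genes were separate. Bub1 was at least 23.7-fold, Bub1b at least 14.6-fold and Ttk at least 8.47-fold lower in regression. All 8 kinetochore members fell. Cenpa read 0.01, −0.30, −0.35 and −0.39 on the regression arrays, against 1.28 to 1.65 on the tumor arrays (difference −1.73 ± 0.33, 3.31-fold lower, adjusted p = 0.00198). Cenpf read −0.82, −0.08, −0.47 and −0.55 on the regression arrays, against 1.70 to 3.70 on the tumor arrays (difference −3.39 ± 0.49). Spc24 read −4.45, −4.75, −2.11 and −3.06 on the regression arrays, against −0.59 to 0.25 on the tumor arrays (difference −3.51 ± 0.53). The regression arrays were close together for Cenpa and Cenpf and scattered for Spc24, without overlap in any of them.

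All 4 passenger complex members fell. Birc5 read 1.96, 2.10, 2.21 and 1.74 on the regression arrays, against 5.96 to 6.99 on the tumor arrays (difference −4.53 ± 0.33, 23.1-fold lower, adjusted p = 1.86e-06). Incenp read 0.74, 0.57, 0.25 and 0.32 on the regression arrays, against 2.57 to 3.24 on the tumor arrays (difference −2.42 ± 0.33, adjusted p = 0.000158). Aurkb read −5.29, −5.30, −5.01 and −5.32 on the regression arrays, none well above background, against −1.26 to −0.56 on the tumor arrays (at least 15.7-fold lower, adjusted p = 2.41e-06). Birc5 and Incenp were well above background on all 4 regression arrays. Aurkb was on none of them, nor on any control or pre-tumor array. Like levels, detection cannot be compared between probes of different genes. Of the spindle group 5 of 7 fell. Hmmr read −3.42, −2.93, −1.89 and −2.43 on the regression arrays (difference −3.48 ± 0.38, adjusted p = 2.6e-05), Tpx2 read −1.67, −2.71, −1.66 and −2.68 (difference −2.42 ± 0.51) and Kif11 read −2.68, −3.57, −3.46 and −3.23 (difference −3.80 ± 0.65, adjusted p = 0.000881). Each lay below all tumor arrays. Kif2c fell by 1.93 and Nusap1, which bundles spindle microtubules, by 1.96 (adjusted p = 0.0334). The chromokinesins Kif4 (−1.32, adjusted p = 0.0914) and Kif22 (−0.89, adjusted p = 0.069) did not pass.

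Of the chromosome genes 9 of 10 fell. Top2a read −0.98, −1.46, −0.84 and −2.21 on the regression arrays, against 2.23 to 3.17 on the tumor arrays (difference −4.08 ± 0.47, adjusted p = 4.86e-05). Ncapg read −2.34, −2.34, −2.03 and −2.34 on the regression arrays, against 1.26 to 1.62 on the tumor arrays (difference −3.68 ± 0.31, adjusted p = 5.29e-06). Smc2 read −1.14, −1.20, −1.45 and −1.79 on the regression arrays, against 1.1 to 1.86 on the tumor arrays (difference −3.01 ± 0.37, adjusted p = 7.76e-05). All were clear of the tumor arrays. Mki67 read −1.0, −0.80, −0.27 and −0.69 on the regression arrays, against 1.27 to 1.86 on the tumor arrays (difference −2.36 ± 0.52, adjusted p = 0.00512). Pttg1 fell by 3.19, Smc4 by 2.04, Ncaph by 2.03, Cdca5 by 1.95 and Ncapd2 by 1.92. Espl1 read −2.64, −1.39, −1.61 and −1.05 on the regression arrays, within reach of the tumor arrays (0.18). Of the cytokinesis genes 5 of 7 fell. Shcbp1 read −3.37, −3.41, −2.41 and −4.33 on the regression arrays, against 0.59 to 1.48 on the tumor arrays (difference −4.48 ± 0.40, adjusted p = 5.89e-06). Ect2 read −2.17, −2.82, −2.36 and −2.71 on the regression arrays, against 0.39 to 0.84 on the tumor arrays (difference −3.10 ± 0.37, adjusted p = 6.23e-05). Anln read −1.23, −2.16, −1.45 and −2.22 on the regression arrays, against 0.63 to 1.41 on the tumor arrays (difference −2.90 ± 0.47). The regression arrays lay below the tumor arrays for all 3. Racgap1 fell by 2.50 and Kif20a, a midzone motor, by 1.63 (adjusted p = 0.0168), while Prc1, the midzone bundling protein, did not pass (−1.16, adjusted p = 0.065).

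**Figure D3:**
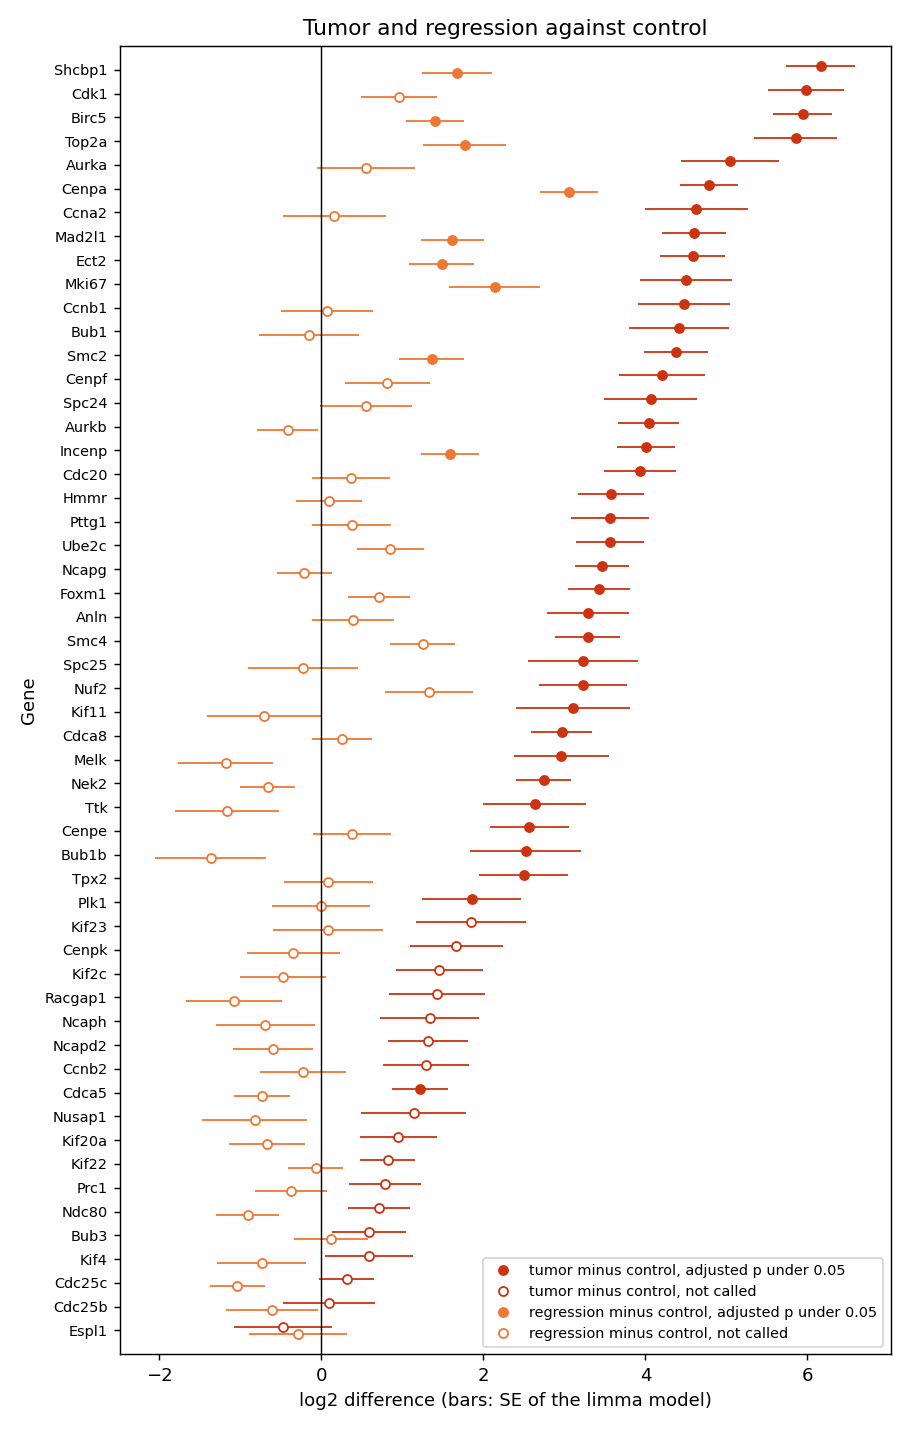
Log2 difference of each of the 54 genes for tumor minus control (red) and regression minus control (orange), with the SE of the limma model as bars and filled points where the adjusted p was under 0.05; fitted differences of genes not above background in a group are plotted as fitted. The 37 filled red points are all above 0, and 9 orange points are filled, with Cenpa the farthest at 3.06.

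Other cell types moved with this comparison. Macrophage markers summed to 223 to 428 on the regression arrays, against 53.2 to 93.2 on the tumor arrays, and 8 of 12 rose. Stellate and fibroblast markers summed to 147 to 458 on the regression arrays, against 96.9 to 206 on the tumor arrays, with 8 of 12 higher. These sums overlapped between the groups. Endothelial markers summed to 14.6 to 24.9 on the regression arrays, against 7.15 to 8.82 on the tumor arrays (8 of 12 higher), and T and NK cell markers to 10.8 to 18.6 on the regression arrays, against 3.98 to 4.86 on the tumor arrays (6 of 12 higher). Hepatocyte markers summed to 1644 to 3432 on the regression arrays, against 408 to 1304 on the tumor arrays, with 4 of 10 higher. The 11 erythroid markers tested summed to 156 to 577 on the regression arrays, against 26.3 to 262 on the tumor arrays, with overlap. On the tumor arrays Gzma, Jchain, S100a8 and Lum were among the markers well above background on no array. The part of these cells in the fall of the mitosis genes was not tested. Within slides, members were lower in regression than in tumor in 53 of 53 on slide 1, 51 of 54 on slide 2 and 53 of 54 on slides 3 and 4.

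**Figure D4:**
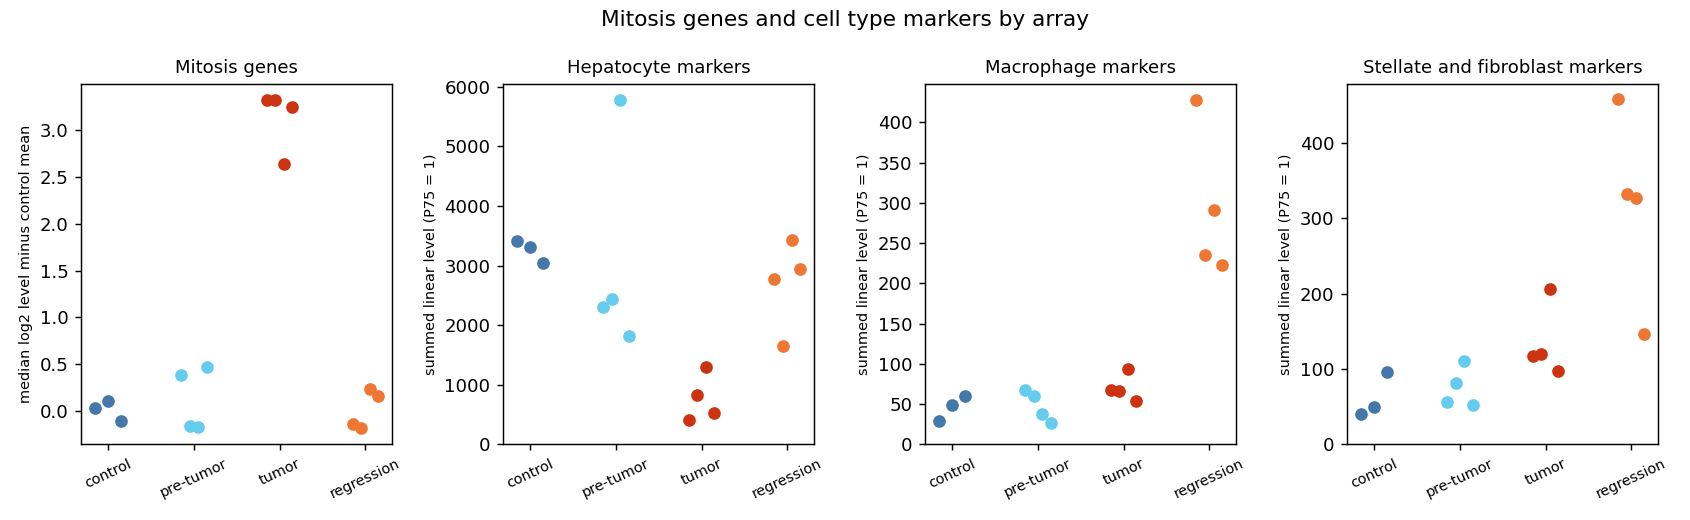
For each array, by group, the median log2 level of the 54 mitosis genes minus their control mean, and the summed linear level (the array's 75th percentile is 1) of hepatocyte, macrophage, and stellate and fibroblast markers. The tumor arrays are highest for the mitosis genes and lowest for hepatocyte markers, and the macrophage sums of the regression arrays, 223 to 428, lie above those of all other arrays.

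Regression tissue still differed from control liver in 9 members, all of them higher, where 5.04% of all genes were called higher. The median member differed by 0.08 (all genes −0.25), with a range of −1.36 to 3.06, and 28 regression means lay above and 26 below control. In 11 members every regression array was above every control array and in 1 every one was below, beside 10.2% and 15.2% of all genes. The 9 were Cenpa, Incenp, Birc5, Mad2l1, Mki67, Top2a, Smc2, Shcbp1 and Ect2, and all 9 had also risen in tumor and fallen in regression against tumor. These comparisons share the regression and control arrays with those above. Cenpa had the largest difference with the values used here, but not after normexp correction, where Birc5 differed by 0.76 without passing. Its regression arrays lay between −0.39 and 0.01, against −3.61 to −2.81 on the control arrays (3.06 ± 0.36, 8.32-fold, adjusted p = 7.34e-05). Mki67 followed at 2.14 ± 0.56 (adjusted p = 0.0277), then Top2a at 1.77 ± 0.51 (adjusted p = 0.0439), Mad2l1 at 1.62 ± 0.39 (adjusted p = 0.0165) and Incenp at 1.59 ± 0.36 (adjusted p = 0.00997). Birc5 differed by 1.41 ± 0.36 (2.65-fold, adjusted p = 0.0233) and Smc2 by 1.36 ± 0.40 (adjusted p = 0.0467). Ect2 was at least 1.9-fold higher in regression (adjusted p = 0.0313), and Shcbp1 was well above background on 2 regression arrays and 0 control arrays (at least 1.34-fold, adjusted p = 0.024). In each slide with both groups, each of the 9 was higher in regression. Cdk1 (0.96, adjusted p = 0.215), Foxm1 (0.71, adjusted p = 0.262), Aurka (0.55, adjusted p = 0.615) and Plk1 (0.00, adjusted p = 0.999) did not pass.

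Most of these 9 calls were narrow. The count was 2 after normexp correction (Cenpa and Mki67) and 2 with slide as a block (Cenpa and Incenp). It was 4 with only the regression and control arrays in the model, and 3 to 10 when 1 array was left out, being 3 without control 3, regression 1 or regression 3, 4 without regression 2 and 5 without control 1 or control 2. Without the 4 arrays with the highest E1A signal, 5 of the 9 calls were lost. Cenpa was called in every alternative, with a difference of 0.43 after normexp correction, 1.37 in the authors' table and 2.15 as the mean of its probes. Its other passing probe gave 1.24, which did not pass (adjusted p = 0.274). Of the 6 among the 9 with other passing probes, Top2a was called by 1 other probe (1.99, adjusted p = 0.0408) and not by the next (−0.58, adjusted p = 0.715). No other probe of the remaining 5 was called, and those of Smc2 gave 0.26, 0.69 and −1.01. Macrophage markers were higher in regression than in control in 8 of 12 and lower in 1, T and NK cell markers higher in 6 of 12, stellate and fibroblast markers higher in 5 of 12, and endothelial markers higher in 5 of 12 and lower in 1. Their part in the higher levels of the 9 genes was not tested.

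Against pre-tumor livers 3 members were higher in regression (5.56%), a share near the 5.04% of all genes, and none lower (4.9% of all genes). The 3 were Cenpa (2.47 ± 0.33, limma adjusted p = 0.00015), Incenp (1.64 ± 0.33, adjusted p = 0.0039) and Smc4 (1.30 ± 0.37, adjusted p = 0.036). Smc4 lost its call in 10 of 28 alternatives. Incenp read −0.62, −0.86, −1.80 and −1.40 on the pre-tumor arrays and Smc4 read −0.94, −1.41, −0.69 and −0.86, while the regression arrays read 0.72, 0.13, 0.51 and −0.06 for Smc4. All regression arrays lay above all pre-tumor arrays for both. The same held in 7 members, and in 2 members all lay below, beside 7.32% and 10.1% of all genes. The median member differed by 0.03 (all genes −0.21). Macrophage markers were higher in regression than in pre-tumor livers in 7 of 12 and lower in 1, T and NK cell markers higher in 6 of 12, stellate and fibroblast markers higher in 4 of 12, endothelial markers higher in 3 of 12 and lower in 1, and hepatocyte markers lower in 2 of 10. Their part in the result was not tested.

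By pattern, 28 members were higher in tumor than in control and pre-tumor livers, lower in regression than in tumor, and not called in regression against control. The 7 members never called were Bub3, Cdc25b, Espl1, Kif22, Kif23, Kif4 and Prc1. Other probes bear on some of them. The array held 95 probes for the members, of which 91 passed, and 28 members had more than 1 passing probe. Values of single probes come from the same model fitted to all passing probes with a gene symbol, with p adjusted over those probes. No member had probes called in opposite directions. Every passing probe was called in 8 of the 28 in tumor against control, in 16 in regression against tumor and in none in regression against control. In tumor against control other probes of called members gave −0.70 for Melk (adjusted p = 0.53), −0.20 for Cenpf (adjusted p = 0.877) and 1.0 for Top2a (adjusted p = 0.482), none of which passed. In tumor against control 5 members were called only by a probe other than the one used: Kif23 (5.43, adjusted p = 8.19e-06), Racgap1 (3.81, adjusted p = 5e-05), Cdc25c (3.27, adjusted p = 0.00121), Ncapd2 (2.31, adjusted p = 0.00123) and Kif20a (1.76, adjusted p = 0.00227). In regression against tumor the same was true of Kif23 (−2.64, adjusted p = 0.00289) and Kif4 (−2.41, adjusted p = 0.0104), and in regression against control of Kif23 (2.79, adjusted p = 0.00578).

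Further lists of related genes were read from the same model and described by counts. Of 67 other mitosis genes tested, 37 rose in tumor against control (55.2%, beside 9.43% of all genes) and 44 fell in regression against tumor (65.7%, beside 8.5%). Higher in regression than in control were 3 (4.48%), a share near the 5.04% of all genes. Knstrn, a spindle and kinetochore protein, was at least 46.8-fold higher in tumor than in control and Nsl1, of the MIS12 kinetochore complex, at least 24.7-fold (its other probe was not called, −0.37). The 3 were Knstrn and Nsl1, by at least 2.53-fold and 3.28-fold, and Cit, the citron kinase of cytokinesis (1.84, adjusted p = 0.0349). Their other probes did not bear this out: that of Nsl1 gave −1.88 (adjusted p = 0.21) and those of Cit gave 0.37 (adjusted p = 0.687) and −0.07 (adjusted p = 0.963), while Knstrn had 1 passing probe. Of 30 DNA replication genes 24 rose in tumor (80%) and 27 fell in regression against tumor (90%). The helicase subunits Mcm7 (3.72, then −2.83), Mcm6 (5.55, then −4.26) and Mcm2 (4.46, then −2.74) had the smallest adjusted p in tumor against control, the first value being tumor minus control and the next regression minus tumor. Regression against control gave 2 higher (6.67%) and 1 lower (3.33%), near the 5.04% and 3.29% of all genes. Mcm2 (1.72) and the licensing factor Cdt1 (1.51, adjusted p = 0.0477) were still higher in regression than in control, and Mcm10 was lower (−2.74, adjusted p = 0.00173).

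Lists of genes that also act outside mitosis were counted in the same way, beside 9.43% of all genes higher in tumor than in control and 8.5% lower in regression than in tumor. Of 11 cohesin genes 5 rose in tumor (45.5%) and 2 fell in regression (18.2%), with the core subunits Smc3 at 2.13 (adjusted p = 0.000988) and Rad21 at 1.72 (adjusted p = 0.0144) against control. Of 16 anaphase-promoting complex genes 6 rose in tumor (37.5%) and 3 fell in regression (18.8%), among them the chain-elongating enzyme Ube2s (1.67, adjusted p = 0.00227, then −1.81). Of 19 centrosome genes 3 rose in tumor (15.8%) and 2 fell in regression, shares near those of all genes, the centriole kinase Plk4 by 4.08 (adjusted p = 0.000269) in tumor, then −2.53. Of 18 genes for transcription factors of the mitotic program, 4 rose (22.2%) and 2 fell (11.1%, beside 7.01% of all genes) in tumor. Tfdp1, the partner of E2F proteins, differed by 3.08 (adjusted p = 5.83e-05) and Mybl2, or B-Myb, by 2.80 (adjusted p = 0.00343). Lin52, of the MuvB core, fell by 1.71 (adjusted p = 0.00688). E2f8, a repressor of the E2F family, was at least 7.1-fold lower in tumor (adjusted p = 0.000165), but another of its probes gave 1.17 (adjusted p = 0.111) and the probes were called in opposite directions against pre-tumor (2.39 and −2.21), so its direction is not settled here. In regression against tumor 8 of the 18 fell and 1 rose, where 8.37% of all genes were called higher. The 1 was Rbl2, or p130 of the DREAM complex (1.29, adjusted p = 0.0352). The count of those that rose ran from 0 to 1 over the alternatives.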

How the data were processed

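RNA of 15 samples was read on Agilent one-colour arrays. Feature Extraction 10.5.1.1 read the images, per the file headers, and its processed signal is a background-subtracted intensity on a linear scale. The authors also deposited a normalized table of log2 values, with its normalization not given in the sources used here, and gene symbols were taken from it.

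From the deposited intensity, log2 signal minus each array's 75th percentile was computed, outlier spots (0.452%) were left out and repeated spots were averaged per probe. Probes well above background on at least 3 of 15 arrays were kept, and the passing probe of highest mean across the arrays stood for its gene. A probe could thus be kept and chosen through high signal in 1 group. The probes used for Cdk1 and Aurkb were kept only through the tumor arrays. Groups were compared with limma 3.58.1 in R 4.3.3, in 1 model of 4 groups with 11 residual degrees of freedom, two-sided, with Benjamini-Hochberg adjustment over 19214 genes and a threshold of 0.05. The procedure was tested on simulated data, in which genes were raised in the tumor group and compared with control. It called 3% of 100 genes raised 2-fold, 43% of 100 raised 4-fold and 90% of 100 raised 16-fold. There were 9 false calls, counted over the genes that were not raised. Noise was drawn independently for each gene, and far fewer genes were raised than the 1811 called higher and 1347 called lower in the real comparison. The adjusted threshold was therefore stricter in the simulation, and its shares do not carry over to the real calls. A member that did not pass may still differ. The members and the other gene lists were chosen with earlier results of these data known. Values per array were given for the 3 members of each role with the smallest adjusted p in tumor against control, for the 12 smallest in regression against tumor and for Mki67, Cdk1, Aurka, Plk1 and Foxm1; other values shown beside them were chosen after they were seen. The alternatives changed the background correction, the normalization, the filter, the source of values, the blocks, the model and the arrays included. Normexp was run on the median spot signal in place of the planned mean, since no mean spot signal was available.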

Additional observations from a re-analysis of the deposited data

Results flagged for a closer look

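In 14 of the 161 groups of 4 arrays checked among the members, 1 array lay apart from the other 3 by more than Dixon's 95% critical value for its gap over the range. Chance marks about 1 group in 20. Values are log2 levels, given for the array that stood apart and then for the lowest and highest of the other 3.

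Tumor 3, the array with the fewest spots well above background, was the array apart in 7 of these. It was low for Melk (−1.58, others 0.64 to 0.91), Bub3 (1.13, others 2.67 to 2.98), Mad2l1 (2.93, others 4.02 to 4.16), Aurkb (−1.26, others −0.65 to −0.56) and Nusap1 (−1.84, others 0.29 to 0.36). It was high for Ube2c (1.98, others 0.98 to 1.14) and Pttg1 (3.15, others 1.95 to 2.06). Without tumor 3, 38 members rose in tumor against control and 46 fell in regression against tumor. Tumor 4 was low for Kif2c (−0.80, others −0.43 to −0.35) and Mki67 (1.27, others 1.78 to 1.86).

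Regression 3 was high for Aurkb (−5.01, others −5.32 to −5.29, none well above background), Cdca8 (−0.44, others −1.63 to −1.47) and Ncapg (−2.03, others near −2.34). Regression 1 was low for Prc1 (−1.36, others 0.01 to 0.24), and pre-tumor 3 was low for Espl1 (−3.07, others −0.82 to −0.64).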

How the results depend on the processing

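Over 28 alternatives, 32 of the 37 members higher in tumor than in control were called in every one, as were 34 of 44 against pre-tumor, 41 of 47 lower in regression than in tumor, 1 of 9 higher in regression than in control (Cenpa) and 1 of 3 higher in regression than in pre-tumor (Cenpa). No called direction reversed. Plk1 in tumor against control lost its call in 16 alternatives and Ccnb2 in regression against tumor in 15. Counts ran from 34 to 42 for tumor above control, 38 to 48 for tumor above pre-tumor and 41 to 50 for regression below tumor.

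Members higher in regression than in control numbered 2 after normexp, 2 with slide as a block, 4 with only the 2 groups compared and 3 to 10 with 1 array left out. Members lower in regression than in control numbered 1 with the replicate block. Members higher in regression than in pre-tumor numbered 6 after quantile normalization and 2 to 5 with 1 array left out (5 without regression 4). Those lower numbered 1 with only the 2 groups, 1 with the mean of probes and 0 to 1 with 1 array left out (1 without pre-tumor 3 or tumor 3). The cause of these shifts was not tested. Each array's deviations from its group mean, over all genes tested, were correlated between arrays of different groups. For same-numbered arrays the correlations were −0.45 to 0.61 (median 0.12, 21 pairs). They were −0.54 to 0.20 for arrays of the same slide (median −0.17), and −0.62 to 0.54 for pairs that shared neither (median 0.01, 44 pairs). These ranges overlap and the pairs share arrays, so whether the numbers pair the arrays cannot be settled from them. With the replicate block, 37 members were higher in tumor than in control, 46 higher in tumor than in pre-tumor, 48 lower in regression than in tumor, 11 higher in regression than in control and 4 higher in regression than in pre-tumor. Signal near background limits how well the low side of a difference is measured.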
